A study of Mus musculus with 5 samples.

Results

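Immediate early genes are transcribed within minutes of a signal without the need for new protein, and 10 of them were followed in gastrulating mouse embryos: Fos, Fosb, Jun, Junb, Jund, Egr1, Ier2, Ier3, Atf3 and Klf6. The choice was by gene name, with no threshold on their values though with earlier results of these data known, and they were 10 of the 49671 genes in the count table, of which 21777 had a count in any embryo and 12067 had enough counts to be tested. Of the members, 8 could be tested, while Fosb and Atf3 fell below the filter on low counts. Each of the 5 samples was the epiblast with its visceral endoderm (VE) from 1 mouse embryo at E6.75, dissected by hand, freed of extraembryonic ectoderm (ExE) and sequenced as bulk RNA by SmartSeq2. The 2 SO+ embryos carried no Cre and had 1 floxed and 1 wild-type Oct4 allele (Sox2Cre-/-; Oct4 fl/+). The 3 SO- embryos carried the Sox2Cre transgene with 1 floxed and 1 null allele (Sox2Cre+/-; Oct4 fl/-), so that a floxed allele was common to both groups while Cre was present in SO- alone. All embryos were of mixed strain background. Cre in this line is driven by the Sox2 promoter and acts mainly in the epiblast, so the VE in each sample was largely outside the deletion.

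In many cells, growth factor receptors such as those for FGF activate the ERK kinases, which phosphorylate ETS-family partners of serum response factor (SRF) and so switch on Fos and Egr1 through sites called serum response elements. FOS proteins pair with JUN proteins to form AP-1, a transcription factor dimer, whereas EGR1 is a zinc finger factor that acts alone. In the gastrulating epiblast FGF signalling through ERK is required for cells to leave through the primitive streak. The same genes are also known to be induced by handling and dissociation of tissue, through the stress kinases JNK and p38 and through ERK itself, so their levels in dissected material can carry both inputs.

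Total counts were 27538119 and 27047148 in the SO+ embryos and 4134617, 1117566 and 4191498 in SO- embryos 1, 2 and 3, so depth was divided along genotype. Levels are given as CPM, a gene's count scaled to the same library total in every embryo, and 3 counts, the limit that a count of 0 allows, corresponded to between 0.109 CPM in SO+ embryo 1 and 2.68 CPM in SO- embryo 2. Intervals and limits cover the counting error of reads only. SmartSeq2 reads carry no molecular identifiers, so copies amplified from the same molecule are counted separately and the intervals may be too narrow. The targeted gene, Pou5f1 (Oct4), was at 920 and 435 CPM in SO+ and at 27.8, 12.5 and 43.7 CPM in SO-, a log2 fold change of -4.43 (edgeR, adjusted p = 3.94e-05). In bulk samples such as these, fewer cells of a type and less RNA per cell cannot be told apart. VE markers summed to 2588 and 2790 CPM in SO+ and 3826, 3815 and 2380 CPM in SO-, and none of the 9 tested was called. Epiblast markers, Pou5f1 among them, summed to 6343 and 5048 CPM in SO+ and 2562, 2181.5 and 3331 CPM in SO-. Of the 8 tested, 4 were called lower, against 2.35% of all genes called, with a median log2 fold change of -0.91 over the list (edgeR). Dnmt3b was the largest part of each sum, at 3983 and 3263 CPM in SO+ and 1708, 1447 and 2286 CPM in SO-. Sox2 and Fgf5 went the other way, with log2 fold changes of 0.56 and 0.38, and were not called (edgeR, adjusted p = 0.514 and 0.274). The part of VE and epiblast in the levels of the immediate early genes was not tested.

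RefSeq promoter windows of the build GRCm38.p6, with 250 bases before the transcription start and 50 bases from it onward, were held for 8 of the 10 members. Egr1 and Ier2 had no window, so their promoters were not searched. The windows of Fos, Fosb and Ier3 are shown because Fos and Ier3 had the widest spread between embryos among the 8 tested members and Fosb is the closest relative of Fos. They lie at chr12:85473640-85473939 on the plus strand, chr7:19309996-19310295 on the minus strand and chr17:35821463-35821762 on the plus strand. Capitals mark the matches of some short motifs, each searched on both strands. TGACG is the core of a cyclic AMP response element. TATAAA is a common form of the core promoter box bound by TBP. GGGCGG is the box bound by SP1-type factors. Neighbouring or overlapping matches run together in the capitals.
Fos: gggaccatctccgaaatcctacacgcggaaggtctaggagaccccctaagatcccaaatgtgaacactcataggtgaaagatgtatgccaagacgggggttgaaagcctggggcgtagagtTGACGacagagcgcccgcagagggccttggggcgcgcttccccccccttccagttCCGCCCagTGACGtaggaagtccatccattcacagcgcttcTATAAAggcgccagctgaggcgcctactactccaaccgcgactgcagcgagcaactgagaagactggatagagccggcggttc
Fosb: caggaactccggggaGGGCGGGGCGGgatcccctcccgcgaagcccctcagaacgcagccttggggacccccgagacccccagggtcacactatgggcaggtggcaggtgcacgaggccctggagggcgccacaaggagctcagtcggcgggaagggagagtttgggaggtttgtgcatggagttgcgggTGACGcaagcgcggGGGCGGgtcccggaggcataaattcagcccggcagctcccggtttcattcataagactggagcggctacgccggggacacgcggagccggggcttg
Ier3: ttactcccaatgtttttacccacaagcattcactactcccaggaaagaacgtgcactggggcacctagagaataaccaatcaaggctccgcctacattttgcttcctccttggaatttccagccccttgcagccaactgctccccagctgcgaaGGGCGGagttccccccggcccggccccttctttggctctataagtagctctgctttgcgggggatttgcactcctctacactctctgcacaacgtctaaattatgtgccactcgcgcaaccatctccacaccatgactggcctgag

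TGACG was found in the windows of 4 of the 8 members, namely Fos, Fosb, Junb and Atf3, compared with 20.8% of all 32851 promoters of the same length. In Fos it began 129 and 66 bases before the start, and in Fosb 60 bases before it. TATAAA was present in Fos, 33 bases before the start, and in Junb, against 13.6% of all promoters. GGGCGG was present in 6 of the 8, against 35.7% of all. The CArG box to which SRF binds was matched in none of the 8 windows and in 1.63% of all promoters, which says only that these letters are not in this stretch. The Jund window, chr8:70697489-70697788, ended before the GENCODE start of the gene at 70698949. It held no match of these motifs but is counted among the 8. The Junb window, chr8:84978699-84978998 on the minus strand, reached only a short way past the GENCODE start at 84978718. Neither window is shown.

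None of the 8 testable members was called between SO- and SO+ at an adjusted p below 0.05 by edgeR, DESeq2 or limma-voom, where edgeR called 2.35% of all genes tested. At an unadjusted p below 0.05, edgeR and DESeq2 each picked 2 members, Ier2 and Fos, and limma-voom picked 1, against 13.7% of all genes in edgeR. The fitted change was positive for 4 members and negative for 4, with a median log2 fold change of 0.02 over the members and -0.002 over all genes. The CPM values of the genotypes did not overlap for 3 of the 8, Ier2, Junb and Jund, against 29.5% of all genes. The shallowest library, SO- embryo 2, held between 2 counts (Fos) and 134 counts (Ier2) for a tested member.

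**Figure D1:**
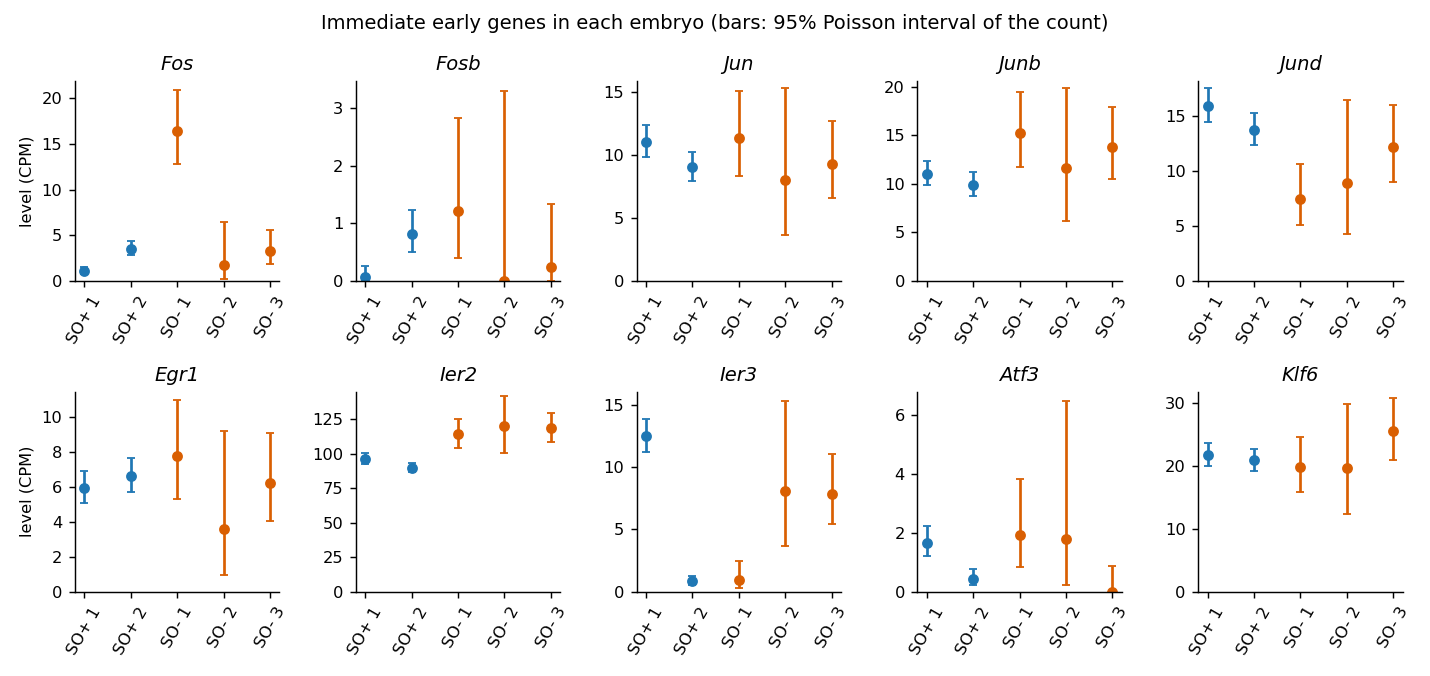
Level of each of the 10 immediate early genes in CPM (vertical axis, from 0, scaled to each gene) in the 2 SO+ embryos (blue) and the 3 SO- embryos (orange), with bars giving the exact 95% Poisson interval of the count. Ier2 was higher in every SO- embryo than in both SO+ embryos, Fos stood out at 16.4 CPM in SO- embryo 1, and Ier3 fell into a high and a low level within each genotype.

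Levels between genes were compared per kilobase of exon (FPKM, here CPM divided by the GENCODE exon length in kilobases). Ier2 was the most abundant member at 70.8 ± 8.98 FPKM (SD, n = 5), at the 93.0 percentile of all genes tested. Next came Jund at 7.00 ± 2.08, Junb at 5.36 ± 0.941, Ier3 at 5.34 ± 4.45 and Klf6 at 4.90 ± 0.543 FPKM, between the 44.9 and 53.6 percentiles. Jun at 3.06 ± 0.440, Fos at 2.23 ± 2.70 and Egr1 at 1.34 ± 0.340 FPKM followed, and Atf3 at 0.542 ± 0.410 and Fosb at 0.0748 ± 0.0839 FPKM were lowest. Ier2 exceeded Jund, and Klf6 exceeded Jun, in 5 of 5 embryos, whereas Junb exceeded Ier3 in 2, and Ier3 exceeded Klf6 and Fos exceeded Egr1 in 3 each, so these neighbours were not separated beyond their spread. The genes best known as acute markers of stimulation, Fos, Fosb, Egr1 and Atf3, thus occupied the bottom of this order of means. The order did not hold in every embryo, as Jun exceeded Fos in 4 of 5. In SO- embryo 1 Fos was at 6.99 FPKM, above Junb at 6.62 FPKM and below Ier2 alone.

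Fos encodes the prototype FOS subunit of AP-1. It was at 1.09 and 3.55 CPM in SO+ and at 16.4, 1.79 and 3.34 CPM in SO-, from 30 and 96 counts and from 68, 2 and 14 counts. SO- embryo 1 stood alone: its 95% Poisson interval of 12.8 to 20.8 CPM lay above those of all other embryos, while SO- embryos 2 and 3 fell within the SO+ range. The log2 fold change was 1.77 ± 0.77 (SE), with an unadjusted p of 0.0383 and an adjusted p of 0.320 (edgeR). Without SO- embryo 1 the log2 fold change was 0.26, and without SO+ embryo 2 it was 2.86 (edgeR, adjusted p = 0.0566), so the estimate rested on single embryos.

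Fosb encodes a second FOS subunit. Its counts were 2 and 22 in SO+ and 5, 0 and 1 in SO-, giving 0.0726 and 0.813 CPM and 1.21, 0 and 0.239 CPM, where the 0 allows up to 2.68 CPM. Like Fos it was lower in SO+ embryo 1 than in SO+ embryo 2 and was highest in SO- embryo 1, although the interval of that highest value, 0.393 to 2.82 CPM, overlapped that of SO+ embryo 2. Without the filter its log2 fold change was 0.34 ± 1.46 (SE; edgeR, adjusted p = 0.951).

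The JUN subunits, which pair with FOS or with each other, were more even. Jun was at 11.04 and 9.02 CPM in SO+ and at 11.4, 8.05 and 9.30 CPM in SO-, with overlapping groups and a log2 fold change of -0.02 ± 0.33 (edgeR, adjusted p = 0.991). Junb, often an antagonist of Jun in cell cycle control, was at 11.04 and 9.91 CPM in SO+ and at 15.2, 11.6 and 13.8 CPM in SO-. The groups did not overlap, but the log2 fold change of 0.41 ± 0.30 was not called (edgeR, adjusted p = 0.624), and SO- embryo 2 rested on 13 counts. Junb shares 173 of its 2301 exon bases with the abundant Prdx2 on the other strand and Jun shares 232 of 3189 with Junos, and reads in those bases may not be attributable to 1 gene, since the counting setting for strand is not given in the sources used here.

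Jund, the JUN member usually expressed without stimulation, went the other way. It was at 16.0 and 13.8 CPM in SO+ and at 7.498, 8.95 and 12.2 CPM in SO-. All 3 SO- values were below both SO+ values, with a log2 fold change of -0.62 ± 0.32 (edgeR, adjusted p = 0.426). The ratio of Jund to Junb counts, which does not depend on library scaling and was examined after the values were seen, was 1.45 and 1.39 in SO+ and 0.492, 0.769 and 0.879 in SO-. Since the pair was picked for going opposite ways, the ratio is a description.

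Summed over Fos, Fosb, Jun, Junb and Jund, AP-1 transcripts came to 39.2 and 37.1 CPM in SO+ and 51.8, 30.4 and 38.9 CPM in SO-, so the genotypes overlapped. The composition differed more than the total. Fos and Fosb together made up 2.96% of these counts in SO+ embryo 1 (Clopper-Pearson 95% interval 2.04 to 4.16%) and 11.8% in SO+ embryo 2 (9.84 to 13.9%). In SO- embryos 1, 2 and 3 they made up 34.1% (27.8 to 40.9%), 5.88% (0.720 to 19.7%) and 9.20% (5.24 to 14.7%).

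Egr1 encodes the zinc finger factor often used as a readout of ERK activity. It was at 5.92 and 6.62 CPM in SO+ and at 7.74, 3.58 and 6.20 CPM in SO-, from 163 and 179 counts and from 32, 4 and 26 counts, the groups overlapped, and the log2 fold change was -0.005 ± 0.43 (edgeR, adjusted p = 0.999). SO- embryo 1 had the highest value, as for Fos, but by a margin within counting error. Klf6, a Krüppel-like zinc finger factor, was at 21.8 and 20.9 CPM in SO+ and at 19.8, 19.7 and 25.5 CPM in SO-, with a log2 fold change of 0.05 ± 0.23 (edgeR, adjusted p = 0.964). Atf3, a stress-induced ATF/CREB family factor, gave 46 and 12 counts in SO+ and 8, 2 and 0 in SO-. These were 1.67 and 0.444 CPM and 1.93, 1.79 and 0 CPM, with the 0 of SO- embryo 3 allowing up to 0.716 CPM, and without the filter the log2 fold change was 0.08 ± 1.123 (edgeR, adjusted p = 0.989).

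Ier2, a nuclear protein induced rapidly by growth factors, was at 96.4 and 89.9 CPM in SO+ and at 114, 120 and 118 CPM in SO-. Every SO- value lay above both SO+ values, with means of 93.2 ± 4.62 (SD, n = 2) and 117 ± 2.97 CPM (SD, n = 3). The log2 fold change of 0.34 ± 0.12 (SE) had an unadjusted p of 0.0162 but did not pass after adjustment over all genes (edgeR, adjusted p = 0.214), and it stayed between 0.29 and 0.38 as each embryo was left out. The 3 SO- embryos spanned only 0.06 on the log2 scale, a range narrower than that of all but 1.43% of genes tested. That range was also narrower than counting error: SO- embryo 2 rested on 134 counts, with a 95% Poisson interval of 100 to 142 CPM. Ier2 supplied between 54.3% and 65.4% of the summed CPM of the 10 members, which was 177 and 156 CPM in SO+ and 196, 183 and 197 CPM in SO-. The sum did not follow Ier2 within SO-, where embryo 2 had the highest Ier2 and the lowest sum. Without Ier2 the sum was 81.0 and 65.9 CPM in SO+ and 82.2, 63.5 and 78.5 CPM in SO-, and the genotypes overlapped.

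Ier3, a regulator of cell survival that is induced by growth factors and stress, followed another pattern. It was at 12.5 and 0.850 CPM in SO+ and at 0.967, 8.05 and 7.87 CPM in SO-, from 343 and 23 counts and from 4, 9 and 33 counts. SO+ embryo 1 and SO- embryos 2 and 3 were high, and SO+ embryo 2 and SO- embryo 1 were low, with no overlap between the 95% Poisson intervals of these sets. The levels therefore crossed genotype, and the log2 fold change was -0.34 ± 0.91 (edgeR, adjusted p = 0.936), ranging from -1.26 without SO+ embryo 2 to 2.62 without SO+ embryo 1. The gene lies at chr17:35821684-35822923 (GRCm38), 311 kb from Pou5f1.

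**Figure D2:**
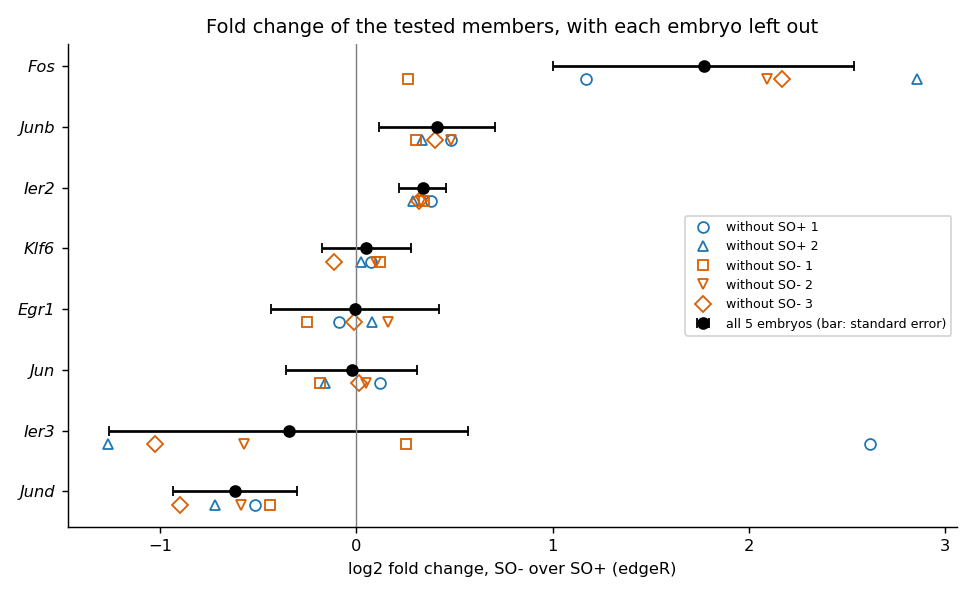
Log2 fold change of SO- over SO+ for the 8 tested members (horizontal axis) with all 5 embryos (black, bar = standard error) and after removing 1 embryo at a time (open symbols). Ier2 stayed between 0.29 and 0.38, whereas Fos ran from 0.26 to 2.86 and Ier3 from -1.26 to 2.62.

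The spread between embryos of a genotype divided the members. The biological coefficient of variation, edgeR's estimate of relative spread beyond counting, was 0.56 for Fos and 0.66 for Ier3, against 0.35 and 0.32 expected from the trend over genes of their level. Their ratios to the trend were at the 99.0 and 99.7 percentiles of all genes tested. The other 6 members lay below the trend, with ratios from 0.86 to 0.93, where 30.7% of all genes lay above it. Within the SO+ pair, at similar depth, the log2 levels differed by 1.68 for Fos and 3.81 for Ier3, at the 97.9 and 99.7 percentiles of all genes. The other differences in that pair were 0.05 for Klf6, 0.09 for Ier2, 0.15 for Junb, 0.17 for Egr1, 0.20 for Jund and 0.28 for Jun, the last at the 59.0 percentile.

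**Figure D3:**
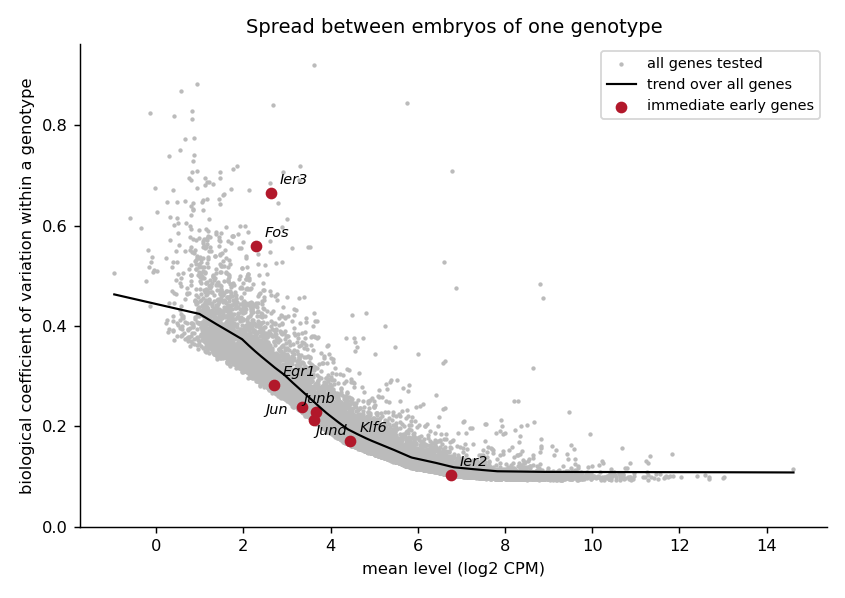
Biological coefficient of variation within a genotype (vertical axis) against mean level in log2 CPM (horizontal axis) for all genes tested (grey), the trend over all genes (line) and the 8 tested members (red). Fos at 0.56 and Ier3 at 0.66 lay far above the trend, and the other 6 members lay below it.

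The members did not share 1 ranking of the embryos. SO- embryo 1 had the highest CPM for 6 of the 10, namely Fos, Fosb, Jun, Junb, Egr1 and Atf3, but the lowest for Jund and nearly the lowest for Ier3. Of these 6, only Fos had a 95% Poisson interval in that embryo above those of all other embryos. For Fosb, Jun, Junb, Egr1 and Atf3, and for Jund, the interval overlapped that of another embryo. Decidua markers summed to 26.5 and 31.9 CPM in SO+ and 50.1, 50.1 and 32.7 CPM in SO-, and ExE markers to 20.7 and 22.1 CPM in SO+ and 30.5, 37.6 and 20.0 CPM in SO-. Of these, 3 decidua and 5 ExE markers were tested and none was called (2.35% of all genes were called). Bmp2 was the largest part of the decidua sum, at 15.3 and 18.5 CPM in SO+ and 29.7, 37.6 and 16.0 CPM in SO-. The fitted change was positive for all 3 tested decidua markers, Bmp2, Des and Pgr. Pgr averaged 1.47 CPM in SO+ and 4.08 CPM in SO-, with every SO- value above both SO+ values (edgeR, adjusted p = 0.267). Dcn, which was not tested, averaged 3.00 CPM in SO+ and 1.58 CPM in SO-, and Prl8a2 had no count in any embryo. Among ExE markers, Bmp4 averaged 4.14 CPM in SO+ and 10.7 CPM in SO-, whereas Ascl2 averaged 3.01 and 2.17 CPM. Blood and immune markers summed to 0.508 and 1.52 CPM in SO+ and to 0.967, 0 and 0.477 CPM in SO-, where a count of 0 in SO- embryo 2 allows up to 2.68 CPM a gene, with 6 of the 10 at 0 in all embryos, and mitochondrial counts took 2.31 to 2.81% of each library. The part of other cell types in the levels of Fos and Ier3 was not tested beyond these values.

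Genes of the pathways upstream and downstream were set beside the members in 7 lists. Over all genes tested, whatever their list, 2.35% were called. Among 39 other immediate early genes, 24 could be tested, 1 rose in SO- and none fell, with a median log2 fold change of 0.02. The gene that rose was Zfp36l1, an RNA-binding protein that destabilises AU-rich messages, at 44.1 and 66.8 CPM in SO+ and 103, 123 and 91.9 CPM in SO- (log2 fold change 0.92, edgeR, adjusted p = 0.0232). No gene of the list was called without SO+ embryo 1, SO- embryo 1 or SO- embryo 2, nor by limma-voom, while DESeq2 called 2. The most abundant were Sgk1, a growth factor-induced kinase, with a log2 fold change of 0.28 (edgeR, adjusted p = 0.243), and Mcl1, a survival factor, with -0.17 (edgeR, adjusted p = 0.679).

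Of 17 ERK feedback genes and ETS targets, all could be tested, 3 rose and 1 fell (2.35% of all genes were called), and the median log2 fold change was 0.37, the highest of the 7 lists. Those that rose encode feedback inhibitors of receptor signalling. Spry4 was at 23.5 and 37.97 CPM in SO+ and 53.7, 75.2 and 66.8 CPM in SO- (log2 fold change 1.07, edgeR, adjusted p = 0.0256). Spry1 was at 32.1 ± 2.61 (SD, n = 2) in SO+ against 61.0 ± 6.51 CPM (SD, n = 3) in SO-, and Il17rd at 57.3 ± 8.18 against 101 ± 10.6 CPM (log2 fold changes 0.91 and 0.83, edgeR, adjusted p = 0.0123 and 0.0120). Ccnd1, the G1 cyclin D1, fell from 159 ± 12.5 to 98.0 ± 1.41 CPM (log2 fold change -0.70, edgeR, adjusted p = 0.00754). The most abundant, Dusp6, the ERK phosphatase, and Etv5, an ETS factor, had log2 fold changes of 0.51 and -0.41 and were not called (edgeR, adjusted p = 0.0820 and 0.147). None of the 17 was called without SO- embryo 1 or without SO- embryo 2, and 2 were called without SO+ embryo 1 and by limma-voom.

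In the FGF to ERK cascade with SRF and its partners, 25 of 26 genes could be tested and 1 was called. This was Fgf8, a ligand of the primitive streak, at 138 and 123 CPM in SO+ and 306, 333 and 295 CPM in SO- (log2 fold change 1.26, edgeR, adjusted p = 0.000125). The epiblast ligand Fgf5, among the most abundant of the list, had a log2 fold change of 0.38 and was not called (edgeR, adjusted p = 0.274). The median of the list was -0.04.

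Of 16 JNK and p38 stress kinase genes, 1 rose and 1 fell, with a median log2 fold change of 0.04. Both encode kinases activated by p38: Mapkapk2 averaged 25.8 ± 4.37 (SD, n = 2) in SO+ and 48.9 ± 5.52 CPM (SD, n = 3) in SO-, whereas Mapkapk3 averaged 39.9 ± 7.60 and 16.5 ± 5.99 CPM (edgeR, adjusted p = 0.0259 and 0.0311). Neither the rise nor the fall was called when SO+ embryo 1, SO- embryo 1 or SO- embryo 2 was left out or with limma-voom, the count then being 0. The kinases Map2k4 and p38 alpha (Mapk14) were the most abundant of the list, with log2 fold changes of 0.16 and -0.03.

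Of 21 heat shock and dissociation stress genes, 17 could be tested and edgeR called none, with 0 at an unadjusted p below 0.05, against 2.35% and 13.7% of all genes, and a median log2 fold change of -0.04. DESeq2 and limma-voom also called none. The abundant chaperones Hsp90ab1 and Hsp90aa1 lay between 6244 and 6716 CPM and between 2406 and 2773 CPM over the 5 embryos. The inducible Hspa1a gave 14 and 7 counts in SO+ and 0, 1 and 0 in SO-, and its near-identical copy Hspa1b gave 2 and 3 counts in SO+ and 0, 0 and 1 in SO-, though reads could be split between this pair. A count of 0 in SO- embryo 2 allows up to 2.68 CPM. The smallest p-values in the list belonged to the chaperone Hspa4l and the ubiquitin gene Ubb, with log2 fold changes of -0.95 and 0.13 (edgeR, adjusted p = 0.411 and 0.614).

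The integrated stress response, the ATF4 programme that answers amino acid shortage and unfolded protein, had 15 of 16 genes tested. None was called by edgeR, DESeq2 or limma-voom, 1 had an unadjusted p below 0.05 in edgeR, and the median log2 fold change was -0.03. That gene, Cebpg, was at 28.1 ± 1.95 CPM (SD, n = 2) in SO+ and 19.3 ± 2.27 CPM (SD, n = 3) in SO- (edgeR, adjusted p = 0.303). Trib3, next by p, had a log2 fold change of -0.95, and the most abundant, the chaperone Hspa5 and the serine synthesis enzyme Phgdh, had 0.19 and -0.02. Among 16 AP-1 dimer partners and EGR co-repressors, 9 were tested and none was called by edgeR, DESeq2 or limma-voom, 1 having an unadjusted p below 0.05 in edgeR. This was Atf7, an ATF2 relative, with a log2 fold change of 0.72 (edgeR, adjusted p = 0.269), and next by p was the EGR co-repressor Nab2 with 2.02, on 1 to 15 counts an embryo. Atf4 and Atf2 were the most abundant, with log2 fold changes of 0.05 and -0.13.

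**Figure D4:**
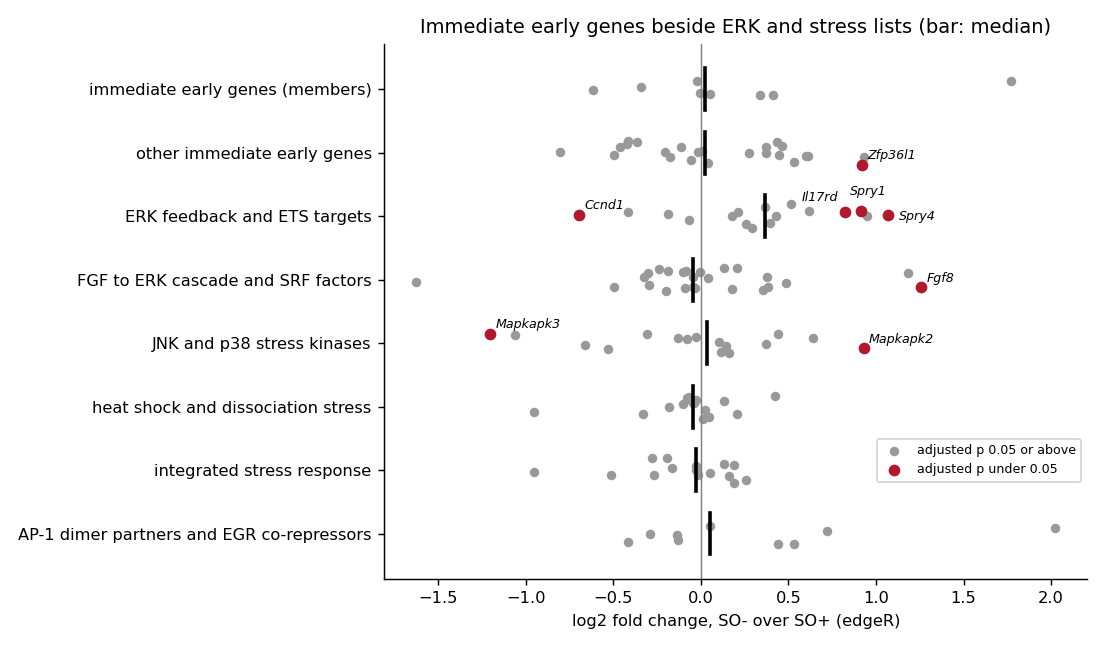
Log2 fold change of SO- over SO+ (horizontal axis) of every tested gene among the immediate early genes and the 7 other lists (rows), with genes at an adjusted p below 0.05 in red and named, and the median of each list as a black bar. The ERK feedback list held 3 genes that rose and 1 that fell, and the immediate early genes, heat shock, integrated stress response and AP-1 partner lists held none.

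Summed over each list, ERK feedback genes and ETS targets came to 1131 and 1166 CPM in SO+ and 1252, 1182 and 1349 CPM in SO-, and heat shock and dissociation genes to 14818 and 16522 CPM in SO+ and 14841, 15619 and 15954 CPM in SO-. SO- embryo 1, where Fos was highest, was the middle embryo for the first sum among SO- and the lowest of the SO- embryos for the second. The largest parts of the first sum in every embryo were Etv5 and Dusp6, with log2 fold changes of -0.41 and 0.51 (edgeR, neither called). The first sum therefore mixes genes that went opposite ways. The second sum was mostly the abundant chaperones Hsp90ab1 and Hsp90aa1, while the inducible Hspa1a reached at most 0.895 CPM, in SO- embryo 2. It therefore says little about the inducible genes of that list. Whether ERK signalling or handling at dissection set the levels of the immediate early genes was not tested, and the time from dissection to lysis is not given in the sources used here.

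The 5 genes most like the mean log2 CPM of the 8 tested members over the 5 embryos had Pearson r between 0.990 and 0.998. They were Ccng2 (cyclin G2), Aldh3a2 (a fatty aldehyde dehydrogenase), Pias1 (a SUMO ligase), Zdhhc7 (a palmitoyltransferase) and Rnf5 (a ubiquitin ligase). Of the 9300 genes compared, 120 exceeded 0.9, over only 5 points whose depth and genotype vary together. Ccng2 was at 24.8 and 11.4 CPM in SO+ and 26.8, 14.3 and 37.2 CPM in SO-, overlapping between genotypes.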

How the data were processed

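Polyadenylated RNA of 5 single embryos was amplified by SmartSeq2. Per the labels and the study's methods, the authors aligned reads with STAR to GRCm38 and counted them per gene with HTSeq; the deposited values are raw counts, not normalized. Columns were matched to embryos through the sample descriptions, and the titles gave genotype and replicate number. Genes were tested with edgeR 4.0.16 in R 4.3.3 (TMM factors, filterByExpr, quasi-likelihood F-test, genotype as sole term), with Benjamini-Hochberg adjustment over all 12067 genes, and a gene was called at an adjusted p below 0.05. Standard errors were taken as the log2 fold change over the root of F. DESeq2 1.42.0, limma 3.58.1 (voom), other scalings, filters, GC and length corrections, thinning (10 draws) and leaving out each embryo were alternatives. Scripts were tested on simulated data. CPM used library totals, and exon lengths came from GENCODE M21 (GRCm38). Titles number the samples, with nothing said on litters, so p-values measure the spread between these samples.

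The members and lists were chosen with earlier results of these data known. The text names all members and Pou5f1. In each list it names every called gene, or else the 2 with the smallest p, and the 2 most abundant. It also names the 5 genes most correlated with the mean of the 8 tested members, taken from those averaging 3 or more in log2 CPM. Some cell type markers are also named for their share of a sum or their direction. A gene that this rule names is not reported here.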

Additional observations from a re-analysis of the deposited data

How the results depend on the processing

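No member was called under any alternative. The number of genes called was 283, and it became 91 with limma-voom and 929 with the replicate block, and ran from 35 to 573 as each embryo was left out (46 without SO- embryo 1, 35 without SO- embryo 2, 180 without SO+ embryo 1, 573 without SO+ embryo 2). DESeq2 called 380. Over the 7 lists, 8 genes were called, against 3 with limma-voom, 17 with the replicate block, 5 with all libraries thinned to the smallest, and 1 to 12 with an embryo left out. The replicate block pairs samples by a number that the labels do not tie to a litter or day, and deviations of same-numbered embryos correlated at 0.0077 and 0.115. The members' median log2 fold change, 0.02, ran from -0.00065 to 0.25 with an embryo left out.

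Only members near 0 or resting on single embryos changed sign. Jun became 0.0012 with the GC trend removed and 0.028 with limma-voom, and ran from -0.18 to 0.12 with an embryo left out. Egr1 became 0.018 with the GC trend removed, 0.00071 with the length trend removed, 0.066 with limma-voom and 0.11 with SO+ thinned, and ran from -0.25 to 0.16. Ier3 became 0.054 with limma-voom and ran from -1.26 to 2.62. Klf6 became -0.11 with the replicate block and ran from -0.11 to 0.12. The cause was not tested. Fos, Junb, Jund and Ier2 kept their sign wherever they could be tested. Depth limits Fos, Fosb, Jun, Egr1, Ier3 and Atf3 in SO- embryo 2, each at 9 counts or fewer.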

Other observations

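A gene picked after its values were seen followed the levels of Ier3 across genotype. St6galnac2, a sialyltransferase, was at 18.7 and 4.51 CPM in SO+ and at 5.08, 15.2 and 11.5 CPM in SO-, high in the same 3 embryos in which Ier3 was high, and Pearson r of the log2 levels was 0.985 over the 5 embryos. It was among the 5 genes most like Ier3 of 9300 compared, 103 of which exceeded 0.9, so the value is a description of these embryos.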
